A study of Homo sapiens with 12 samples.

Results

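The tissue inhibitors of metalloproteinases, TIMP1, TIMP2, TIMP3 and TIMP4, and RECK, a membrane-anchored inhibitor of the same proteases, are described here by gene symbol as 5 of the 56269 genes in a count table from HEYA8 cells, an established human ovarian cancer line. All 5 were measured, and all 5 were among the 16069 genes that passed the filter on low counts. The study asks how the glycosaminoglycan chains on betaglycan, the TGF-β co-receptor encoded by TGFBR3, affect the release of its outer domain. HEYA8 cells carried a control vector, betaglycan with both attachment serines replaced by alanine (∆GAG-BG), or betaglycan with 1 of them replaced (S534A, named CS-BG, and S545A, named HS-BG), with 3 libraries in each group. The S534A and S545A lines, called single-chain mutants here, were made to carry mostly chondroitin sulfate and mostly heparan sulfate, in that order. The paper's enzyme digestion found both kinds of chain on S534A. All groups were grown in serum-containing RPMI medium at steady state with no added ligand. The lentiviral constructs and a fluorescent marker used for sorting were expressed on top of the cells' own betaglycan, and whether a line was 1 clone was not given in the sources used here.

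TIMPs are small secreted proteins that block the zinc at the active site of matrix metalloproteinases (MMPs) and, for TIMP3 above all, of ADAM and ADAMTS proteases, which cut surface proteins from cells and trim the matrix. TIMP2 also helps MMP14 to activate proMMP2 at the cell surface, and TIMP3 is held in the extracellular matrix rather than diffusing away. RECK is tied to the membrane by a lipid anchor and restrains MMPs there, and it also serves as a Wnt co-receptor with ADGRA2.

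In the GRCh38 coordinates of the count table, TIMP1 is on chromosome X from 47582313 to 47586789 (plus strand), TIMP2 on chromosome 17 from 78852977 to 78925387 (minus strand) and TIMP3 on chromosome 22 from 32801701 to 32863043 (plus strand). TIMP4 is on chromosome 3 from 12153051 to 12159351 (minus strand), and RECK is on chromosome 9 from 36036433 to 36124451 (plus strand). TIMP1, TIMP3 and TIMP4 each lie inside a synapsin gene on the opposite strand, SYN1, SYN3 and SYN2 in that order. Synapsins are proteins of synaptic vesicles, and these hosts held 2 to 12, 1 to 12 and 0 to 7 counts per library. Of the 3 hosts, SYN2 shares 170 exon bases with its guest, while SYN1 and SYN3 share 0. TIMP2 contains CEP295NL, which shares 198 exon bases with it on the same strand and held 13 to 29 counts, against 9101 to 16072 for TIMP2. It also shares 367 exon bases with an antisense gene, RP11-323N12.5, which held 0 counts in every library. The library kit keeps strand, but the strand setting of the counting was not given in the sources used here, so shared bases could not be assigned to 1 gene.

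The stretch before the annotated start of TIMP3 is shown because TIMP3 was the member with the clearest differences between groups. It is chr22:32801455-32801700 on the plus strand, from RefSeq promoters on GRCh38.p14, ending at the base before the first exon of TIMP3 in the table. The capitals mark the GC box GGGCGG, a sequence that Sp1-family factors are known to bind, counted on both strands, so that CCGCCC is the same box read from the other side.

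TIMP3, bases before the start: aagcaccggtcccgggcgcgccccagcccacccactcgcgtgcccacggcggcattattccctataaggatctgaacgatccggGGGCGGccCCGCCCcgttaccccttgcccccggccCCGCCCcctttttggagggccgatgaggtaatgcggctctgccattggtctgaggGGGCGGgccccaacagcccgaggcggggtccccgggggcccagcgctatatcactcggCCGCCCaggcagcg

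The window held 5 such boxes, at positions -162, -154, -127, -72 and -14, counted from -1 at its last base and giving the first base of each on the plus strand. A GC box was found in 42.2% of 35116 promoter windows of 246 bases. The window also held 1 CCAAT box at -84 (CCAAT on either strand, in 31.8% of windows). It held no TGANTCA, the AP-1 sequence (6.52% of windows), no TATAAA (10.7%) and no GTCTAGAC, a SMAD sequence (0.179%). Of the TIMP3 window, 72.0% was G or C, where the median window had 58.1%. Windows for TIMP1, TIMP4 and RECK were also matched, with 4 of the 5 members found, but part or all of each lay in annotated exons, and they are not printed.

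Library totals lay between 16410001 and 29504297 counts, and the 3 counts that a reading of 0 still allows stood for 0.10 to 0.182 CPM, the unit of level used here, which is the read count scaled to a common library size by TMM (the trimmed mean of M values). Limits of this kind cover counting error only. TGFBR3 was 413 to 574 CPM in the 6 single-chain libraries. The library labelled ∆GAG-BG 1 had 260 CPM and those labelled ∆GAG-BG 2 and 3 had 20.3 and 21.4, while the library labelled control vector 1 had 15.9 and those labelled control vector 2 and 3 had 259 each. By this gene libraries 2 and 3 of both groups therefore go against their labels, which were used as given, and results on these groups are also given without those 4 libraries. Within S545A, within ∆GAG-BG and within control vector, libraries 2 and 3 were near repeats of each other (chi-square over its degrees of freedom of 1.40 to 1.95, where other pairs inside a group gave 16.5 to 74.8), so p-values measure the spread between these libraries, which may be partly technical. Pairs across groups ran from 3.87 (S534A 1 with S545A 1) to 120 (S534A 2 with ∆GAG-BG 1). Some libraries, such as S534A 1 and S534A 3, thus lay nearer to a library of another group than to any of their own. S534A 3 gave 3.97 with control vector 2. The cause of this likeness was not tested. Keratins KRT7, KRT8 and KRT18, PAX8 of the Müllerian lineage and VIM were each at or above 193 CPM in every library, whereas CDH1 and MUC16 were at 0 counts and the keratin KRT19 reached 0.789 CPM, EPCAM 1.77 and WT1 8.38, with at most 528 counts of MSLN. The leukocyte markers PTPRC and LYZ and the red cell marker HBB held at most 2 counts, and CD3E held 0. Of the stromal markers DCN and LUM held 0 counts, while COL1A1 ran from 7.98 to 17.7 CPM and PDGFRB from 0.701 to 5.04, and of the endothelial markers PECAM1 held at most 17 counts while CDH5 ran from 168 to 431 CPM. In bulk libraries fewer cells with a transcript and less of it per cell cannot be told apart.

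The members differed far more from each other than between groups. Per kilobase of gene length as deposited, TIMP2 led at 88.8 ± 10.2 CPM per kb (mean ± SD, n = 12 libraries). TIMP1 followed at 39.8 ± 11.6, TIMP3 at 7.35 ± 2.27, RECK at 3.25 ± 0.265 and TIMP4 at 1.01 ± 0.434. This order held in all 12 libraries, with library size as the only scaling, and with the longest annotated transcript in place of the deposited length. Among the 16069 tested genes these means stood at the percentiles 97.5, 93.8, 65.2, 47.5 and 26.8. HEYA8 cells thus made TIMP2 and TIMP1 transcripts at levels near the top of their expressed genes, while TIMP4 was in the lower part.

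TIMP2 was above TIMP1 by 1.19-fold in S534A 2 to 2.98-fold in S534A 3 (median 2.53), both on the CPM per kb scale. It exceeded TIMP3 by 7.53-fold in ∆GAG-BG 2 to 25.7-fold in S534A 2 (median 12.8). TIMP3 stood nearest to RECK, 1.07-fold above it in S534A 2 and 3.07-fold in ∆GAG-BG 2. Of the summed TIMP level per kb, TIMP2 made up 52.9 to 71.3%, TIMP1 23.9 to 44.6%, TIMP3 2.06 to 8.67% and TIMP4 0.194 to 1.09%. In the S534A 2 library TIMP1 thus took its largest share and TIMP2 and TIMP3 their smallest.

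**Figure D1:**
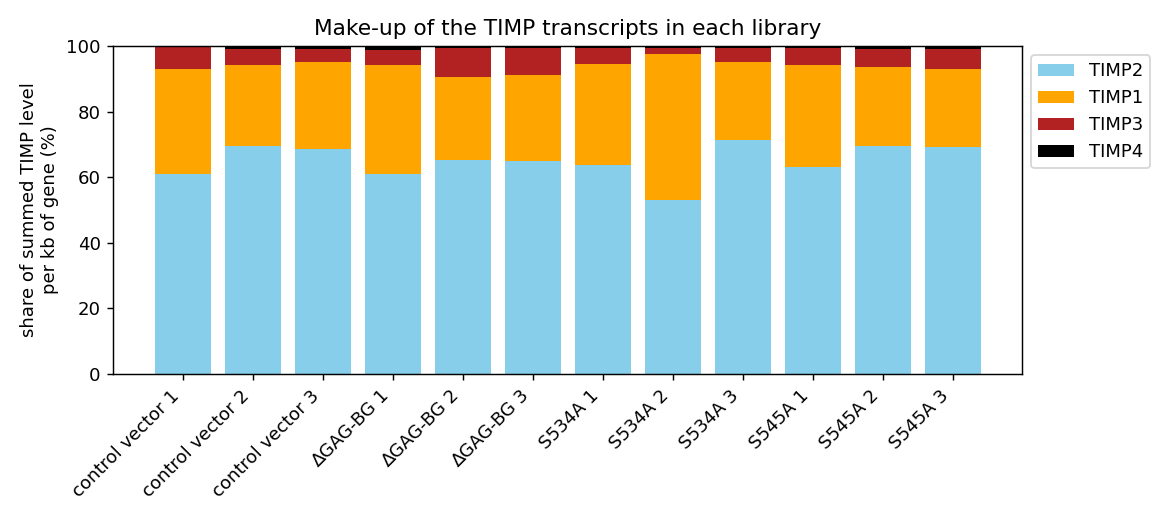
Stacked bars give, for each of the 12 libraries on the horizontal axis, the share (%) that TIMP2, TIMP1, TIMP3 and TIMP4 took of their summed level per kb of gene. TIMP2 took the most in every library, 52.9 to 71.3%, and TIMP4 the least, with S534A 2 standing out by a TIMP1 share of 44.6%.

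TIMP3, the inhibitor with the widest reach over ADAM proteases, was 38.1, 30.2 and 27.1 CPM in control vector libraries 1, 2 and 3. It was 35.5, 51.7 and 50.4 CPM in the ∆GAG-BG libraries, 25.3, 15.2 and 26.4 in the S534A libraries and 30.1, 35.7 and 39.9 in the S545A libraries. The order of the group means was ∆GAG-BG (45.9 ± 9.03, SD, n = 3), S545A (35.2 ± 4.91), control vector (31.8 ± 5.67) and S534A (22.3 ± 6.17). Neighbours in this order overlapped, except that all 3 S534A libraries lay below all 3 control vector libraries.

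S534A against ∆GAG-BG gave the largest difference of any member in any comparison. TIMP3 was lower in S534A by a log2 fold change of -1.05 (SE 0.219, 95% interval -1.52 to -0.57, 2.06-fold), with no overlap between the libraries. Its unadjusted p of 0.000461 in edgeR's quasi-likelihood test was the 5th smallest of 16069, but after Benjamini-Hochberg adjustment over those genes it was 0.890. In this and in each of the other 5 comparisons 0.0% of the genes tested reached an adjusted p of 0.05 in edgeR, while 481 had an unadjusted p under 0.05 in this one. DESeq2 called 5 genes on the same counts, TIMP3 among them, with an adjusted p of 0.0229, and called 2 genes when S534A was set against control vector, 1 between the single-chain mutants and 0 in the remaining comparisons, with none of the 5 members among them. The two-sided exact permutation test gave 0.1, the smallest that 3 libraries against 3 allow. TIMP3 was the 1 member of 5 with an unadjusted p under 0.05, where 2.99% of all genes had one, and also the 1 member whose groups did not overlap, as in 5.66% of all genes. The study chose TIMP3 on these samples, so these values are not independent evidence of its direction. The paper also compared ∆GAG-BG with full-length betaglycan cells, which are not among these libraries. By qRT-PCR it reported more TIMP3 RNA in ∆GAG-BG in both HEYA8 and SKOV-3. The protein was higher in SKOV-3 ∆GAG-BG cells and was not detected in HEYA8. Without libraries 2 and 3 of ∆GAG-BG and control vector, which leaves 1 library in each of those groups that is assumed to vary like the others, the difference was -0.67 with p of 0.0544 in edgeR.

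Between the single-chain mutants, TIMP3 was higher in S545A than in S534A by 0.67 on the log2 scale (SE 0.218, 95% interval 0.19 to 1.14, 1.59-fold), again with no overlap. The unadjusted p was 0.0102 and the adjusted p 0.702 in edgeR. TIMP3 was the 1 member under 0.05 unadjusted (4.78% of all genes), while both TIMP3 and TIMP4 had groups that did not overlap (10.1% of all genes). Neither of these groups holds a library whose TGFBR3 goes against its label. Those libraries still enter the scaling and the shared estimate of spread behind the SE and p. The difference was 0.45 to 0.80 with each library left out in turn. The lowest of these was without S534A 2, the library with the lowest TIMP3 (edgeR p of 0.0376).

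Against control vector, TIMP3 was lower in S534A by a log2 fold change of -0.52 (SE 0.218, unadjusted edgeR p of 0.0356) and higher in ∆GAG-BG by 0.53 (SE 0.216, unadjusted edgeR p of 0.0305). With the near-repeat libraries 2 and 3 summed into 1 in each of the 3 groups that hold them, these were -0.59 (edgeR p of 0.0547) and 0.37 (edgeR p of 0.232), neither under 0.05. TIMP3 was again the 1 member of 5 with such a p in each comparison. For ∆GAG-BG the libraries overlapped, and 0.871% of all genes had an unadjusted p under 0.05, with groups apart in 4.87%. In the S534A comparison 3.45% of all genes had such a p and 7.65% had groups apart. The S534A difference was -0.30 (p of 0.140) without S534A 2 and -0.36 (p of 0.149) without control vector 1, both in edgeR. The ∆GAG-BG difference stayed between 0.43 and 0.68 with any 1 library left out, and its edgeR p ran from 0.0769 to 0.107 on leaving out ∆GAG-BG 2 or 3 or control vector 2 or 3. Without libraries 2 and 3 of both groups the ∆GAG-BG difference was -0.10 and that of S534A -0.78 (p of 0.793 and 0.0311 in edgeR).

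S545A did not separate from either ∆GAG-BG or control vector in TIMP3. Against ∆GAG-BG the log2 difference was -0.38 (95% interval -0.85 to 0.09, unadjusted edgeR p of 0.102), and against control vector it was 0.15 (95% interval -0.32 to 0.62, p of 0.503). No member had an unadjusted p under 0.05 or groups apart in either comparison, where 1.1% and 1.05% of all genes had such a p and 5.05% and 8.82% had groups apart. Without ∆GAG-BG 1 the S545A to ∆GAG-BG difference was -0.53 with p of 0.0341 in edgeR, and without libraries 2 and 3 of ∆GAG-BG and control vector it was -0.01. The comparisons with ∆GAG-BG share those libraries, as do those with control vector, and are not separate evidence.

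**Figure D2:**
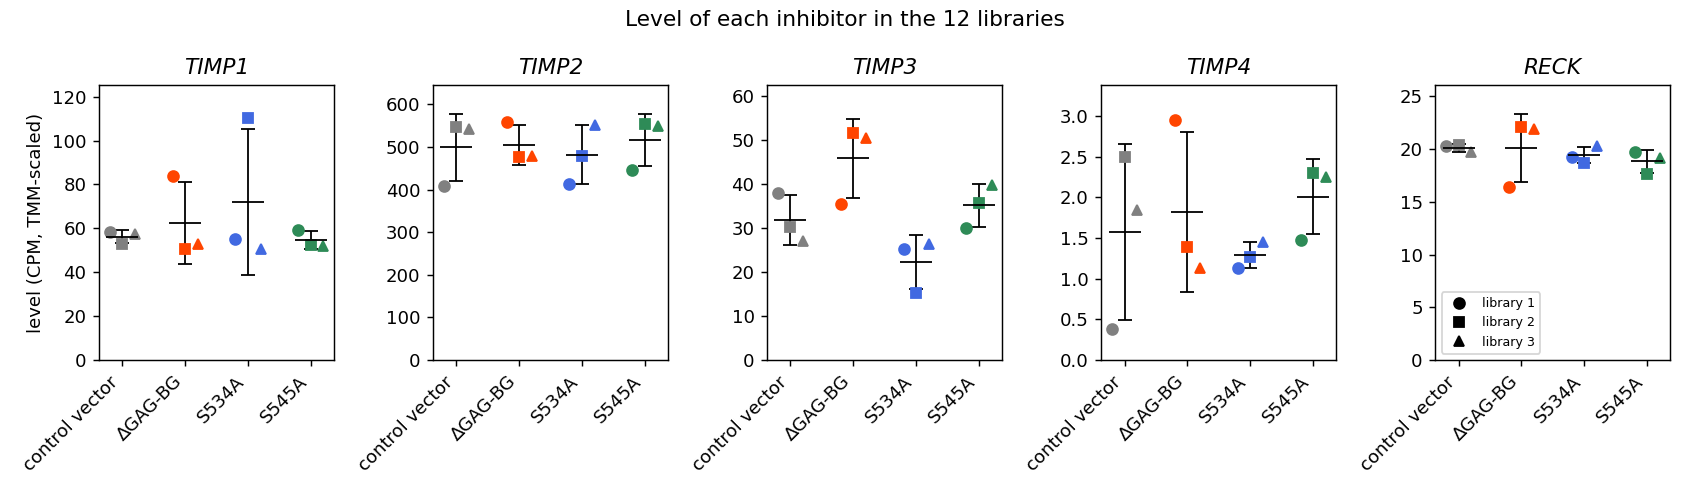
Each panel plots the level (CPM, TMM-scaled, axis from 0) of 1 gene in the 12 libraries by group, with circles, squares and triangles for libraries 1, 2 and 3, and a black bar with whiskers for the group mean ± SD. TIMP3 shows the S534A libraries (15.2 to 26.4 CPM) below those of every other group (27.1 to 51.7 CPM), TIMP1 stands high in S534A 2 and ∆GAG-BG 1, and RECK and TIMP2 vary little.

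TIMP1, the secreted inhibitor found widely in body fluids and bound at the cell surface by CD63, was 58.4, 52.9 and 57.5 CPM in control vector libraries 1, 2 and 3 and 59.4, 52.4 and 51.9 in S545A. It was 55.0, 110 and 50.7 CPM in S534A, and 83.8, 50.6 and 52.9 in ∆GAG-BG. Thus 10 of the 12 libraries lay between 50.6 and 59.4 CPM, and S534A 2 and ∆GAG-BG 1 lay above them. The group means were 72.0 ± 33.3 in S534A, 62.4 ± 18.5 in ∆GAG-BG, 56.3 ± 2.93 in control vector and 54.6 ± 4.20 in S545A (SD, n = 3), and all neighbours in that order overlapped. The differences ran from -0.40 on the log2 scale for S545A against S534A (95% interval -0.99 to 0.19, unadjusted edgeR p of 0.162) to 0.36 for S534A against control vector (95% interval -0.23 to 0.95, p of 0.209). Without S534A 2 the latter was -0.09 and the former 0.05, each of the opposite sign, and S534A against ∆GAG-BG moved from 0.21 to -0.24. Leaving out libraries 2 and 3 of ∆GAG-BG and control vector gave -0.62 to 0.52 over the 5 comparisons that use them, with unadjusted edgeR p of 0.152 to 0.814.

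TIMP2, the most abundant member and the one that takes part in proMMP2 activation, was 407, 546 and 543 CPM in control vector libraries 1, 2 and 3 and 445, 555 and 549 in S545A. In S534A it was 414, 479 and 552 CPM and in ∆GAG-BG 559, 477 and 478. Library 1 was the lowest of its group in control vector, S534A and S545A and the highest in ∆GAG-BG. The group means lay between 482 ± 69.4 (S534A) and 516 ± 61.8 CPM (S545A, SD, n = 3). Every pair of groups overlapped, and the 6 log2 differences ran from -0.07 to 0.10 with unadjusted edgeR p of 0.496 to 0.904. The intervals were narrow enough to bound TIMP2, at -0.38 to 0.41 over the 6 comparisons. Leaving out libraries 2 and 3 of ∆GAG-BG and control vector gave -0.22 to 0.46, the latter for ∆GAG-BG 1 against control vector 1, with unadjusted edgeR p of 0.102 to 0.580.

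RECK, the membrane-anchored member, varied over the libraries as little as TIMP2. It was 20.3, 20.4 and 19.7 CPM in control vector libraries 1, 2 and 3, 16.4, 22.1 and 21.9 in ∆GAG-BG, 19.3, 18.7 and 20.3 in S534A and 19.8, 17.6 and 19.2 in S545A. All groups overlapped, and ∆GAG-BG 1 was the lowest library and ∆GAG-BG 2 the highest, a span of 1.35-fold, against 1.37-fold for TIMP2. The 6 log2 differences ran from -0.09 to 0.00, with 95% intervals between -0.35 and 0.25 and unadjusted edgeR p of 0.430 to 0.994. Without ∆GAG-BG 1, RECK in S545A against ∆GAG-BG was -0.22 with an unadjusted edgeR p of 0.0311. Leaving out libraries 2 and 3 of ∆GAG-BG and control vector gave -0.31 to 0.24, with unadjusted edgeR p of 0.119 to 0.650.

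TIMP4, a TIMP best known from heart tissue, was near the lower end of what these libraries measured, with 11 to 66 counts each. It was 0.381, 2.50 and 1.84 CPM in control vector libraries 1, 2 and 3, from 11, 53 and 47 counts. It was 2.95, 1.39 and 1.13 CPM in ∆GAG-BG, 1.14, 1.27 and 1.46 in S534A and 1.47, 2.30 and 2.26 in S545A. Its span of 7.75-fold over the 12 libraries, set by control vector 1 and ∆GAG-BG 1, was the widest of the 5 members. All S545A libraries were above all S534A libraries, though the nearest were 1.47 and 1.46 CPM, and the fitted difference was 0.65 on the log2 scale (SE 0.525, 95% interval -0.49 to 1.80, unadjusted edgeR p of 0.239, exact permutation p of 0.1). In the other 5 comparisons the groups overlapped, with log2 differences of -0.51 to 0.38 and unadjusted edgeR p of 0.354 to 0.793.

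The TIMP4 result for the groups whose TGFBR3 goes against their labels depended on which libraries were used. Without libraries 2 and 3 of ∆GAG-BG and control vector, TIMP4 in ∆GAG-BG against control vector was 2.94 on the log2 scale (unadjusted edgeR p of 0.000393, adjusted 0.204), and with libraries 2 and 3 alone in every group it was -0.78 (p of 0.0150). The first value sets ∆GAG-BG 1 against control vector 1, the highest and the lowest library, and control vector 1 held 11 counts. The second uses libraries that are near repeats within each of the 2 groups, so its p rests on a spread that may be partly technical. With libraries 2 and 3 alone, 6.15% of all genes had an unadjusted edgeR p under 0.05 in that comparison. S545A against control vector was likewise 2.38 (p of 0.000735), S534A against control vector 1.73 (p of 0.00470) and S534A against ∆GAG-BG -1.20 (p of 0.00745) without those 4 libraries, each an unadjusted edgeR p. In those 4 comparisons 9.45, 3.44, 1.99 and 11.6% of all genes had an unadjusted p under 0.05 without the 4 libraries.

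Set beside TGFBR3, the 3 libraries with 15.9 to 21.4 CPM of it (control vector 1, ∆GAG-BG 2 and 3) held 38.1 to 51.7 CPM of TIMP3, 0.381 to 1.39 of TIMP4 and 407 to 478 of TIMP2. The 3 with 259 to 260 CPM of TGFBR3 (control vector 2 and 3, ∆GAG-BG 1) held 27.1 to 35.5 CPM of TIMP3, 1.84 to 2.95 of TIMP4 and 543 to 559 of TIMP2. The S534A libraries, with 413 to 476 CPM of TGFBR3, held 15.2 to 26.4 CPM of TIMP3, and the S545A libraries, with 520 to 574, held 30.1 to 39.9. These sets of libraries were seen in the data and are not groups of the study, so they were not compared by a test. The part of TGFBR3 in the levels of these 3 members was not tested.

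**Figure D3:**
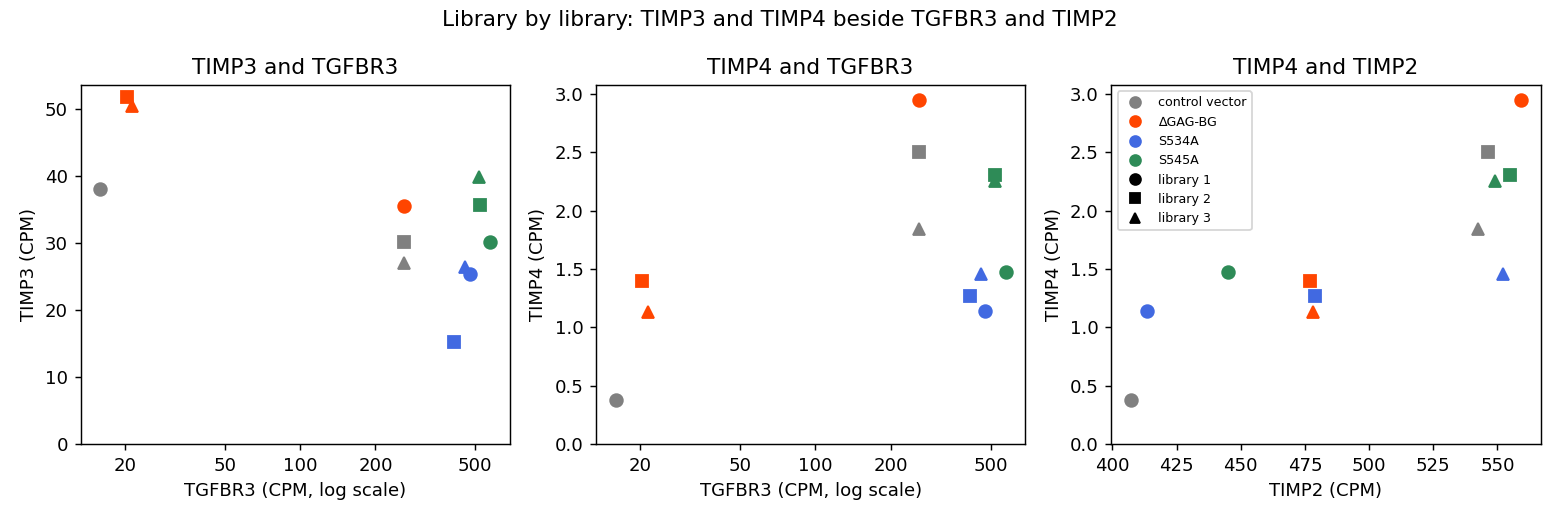
The left and middle panels plot TIMP3 and TIMP4 (CPM, axes from 0) against TGFBR3 (CPM, log axis), and the right panel TIMP4 against TIMP2 (CPM), with 1 point per library, colour for the group and shape for the library number. The 3 libraries with 15.9 to 21.4 CPM of TGFBR3 come from 2 groups and have 38.1 to 51.7 CPM of TIMP3, and the 6 libraries with 543 CPM or more of TIMP2 have 1.46 to 2.95 CPM of TIMP4.

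**Figure D4:**
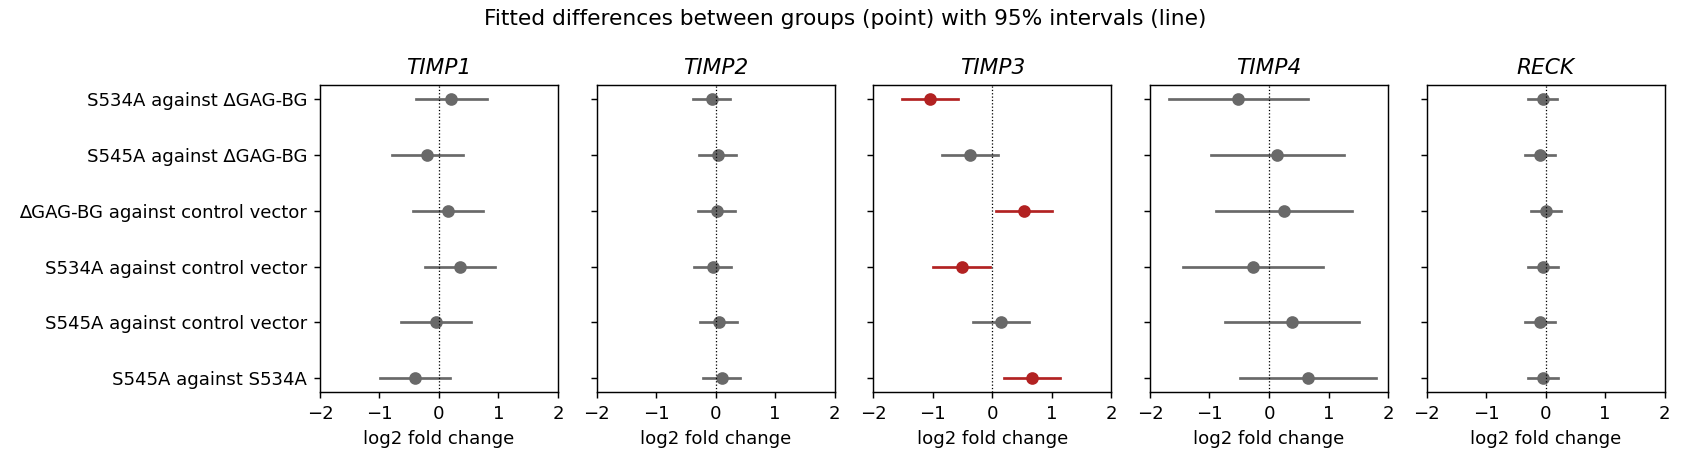
Each panel gives, for 1 gene, the fitted log2 fold change (point) and its 95% interval (line) in the 6 comparisons on the vertical axis, with an unadjusted edgeR p under 0.05 in red. Red appears in 4 comparisons of TIMP3, the largest being -1.05 for S534A against ∆GAG-BG, and in no comparison of the other 4 genes, and the intervals are widest for TIMP4.

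Dividing TIMP3 by the more abundant inhibitors within each library removes the scaling between libraries. The log2 ratio of TIMP3 to TIMP2 per kb was -3.74, -4.68 and -4.10 in the S534A libraries and -3.69, -2.91 and -2.95 in the ∆GAG-BG libraries. It was -3.59, -3.67 and -3.49 in S545A and -3.13, -3.89 and -4.03 in control vector. All S534A libraries lay below those of ∆GAG-BG (difference -0.99) and below those of S545A (S545A against S534A 0.59), with an exact two-sided permutation p of 0.1, which was 0.48 after adjustment over the 12 ratio comparisons. The ratio of TIMP3 to TIMP1 overlapped in all 6 comparisons, with S534A against ∆GAG-BG at -1.21 (exact permutation p of 0.3), where ∆GAG-BG 1 at -2.82 lay below S534A 1 at -2.70 and S534A 3 at -2.52. Without libraries 2 and 3 of ∆GAG-BG and control vector, S534A against ∆GAG-BG was -0.49 for the ratio to TIMP2 and -0.40 for the ratio to TIMP1, with no test on 1 library in an arm. Against control vector S534A was then -1.05 and -1.02 in these ratios. The remaining 3 comparisons with those groups changed sign in both ratios.

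Across the 12 libraries, 10 pairs of members were compared on the log2 CPM scale. TIMP2 and TIMP4 varied together, with a Pearson r of 0.83 (permutation p of 0.00016, adjusted over the 10 pairs 0.0016) and a Spearman rho of 0.80 (permutation p of 0.00298, adjusted 0.0298). The r was 0.76 without control vector 1 and S534A 1, the libraries farthest from the median of TIMP2, 0.84 for deviations from the group means, and 0.81 over 9 libraries with the near repeats summed (permutation p of 0.00151). TIMP2 levels formed a lower set of 6 libraries (407 to 479 CPM) and an upper set of 6 (543 to 559 CPM). The upper set was S534A 3, S545A 2 and 3, control vector 2 and 3 and ∆GAG-BG 1. All but ∆GAG-BG 1 were alike in their counts (pairwise chi-square over degrees of freedom 1.40 to 6.23). Their pairs with ∆GAG-BG 1 gave 33.6 to 44.7. S534A 3 was also near ∆GAG-BG 2 and 3 of the lower set (5.42 and 4.63). The permutation p-values take the libraries as independent, and the part of such likeness in r was not tested. Inside these sets r was 0.65 (exact permutation p of 0.0986) and 0.39 (exact permutation p of 0.444), but since the split by TIMP2 itself narrows its range, these values do not test the pooled relation. TIMP4 held 0.381 to 1.47 CPM in the lower set and 1.46 to 2.95 in the upper. TIMP1 and TIMP3 gave an r of -0.62 (permutation p of 0.0440, adjusted 0.220) and -0.35 without S534A 2 and ∆GAG-BG 1, so that relation rests on those libraries. For deviations from the group means, with all 12 libraries, it was -0.87. The other 8 pairs had r between -0.53 and 0.35, each with a permutation p above 0.05.

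Each member's closest patterns among the 16069 genes were taken by the Pearson r of log2 CPM over the 12 libraries, as a description. TIMP1 was closest to AMPD3, an AMP deaminase (0.99), TNIP1, a regulator of NF-κB (0.98), and the ribosomal protein gene RPL37A (0.97). All 3 were highest in S534A 2 and next highest in ∆GAG-BG 1, as TIMP1 was. TIMP2 was closest to DVL3, a Wnt pathway protein (0.97), SERINC3 (0.96) and the ubiquitin ligase gene RNF13 (0.96). TIMP3 was closest to CREG2 (0.92), RP1-267D11.6 (0.92) and the calcium channel subunit gene CACNA2D3 (0.91), TIMP4 to MIDN (0.95), NBPF11 (0.95) and GLT8D2 (0.93), and RECK to FAM101B (0.95), the kinetochore gene KNTC1 (0.94) and the centriole kinase gene PLK4 (0.93). The matches of TIMP3 were at low levels, CREG2 at 0.534 to 2.14 CPM, RP1-267D11.6 at 2.10 to 3.90 and CACNA2D3 at 1.84 to 5.39. Those of RECK were each lowest in ∆GAG-BG 1, as RECK was.

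Of 36 metalloproteinases that these inhibitors are known to act on, or close relatives of those, 17 were expressed enough to be tested. MMP14, a membrane-bound collagenase, led at 84.0 to 146 CPM per kb over the 12 libraries, close to TIMP2. ADAM17 and ADAM10, the main sheddases of cell surface proteins, were at 10.9 to 17.0 (mean 14.5) and 10.2 to 12.5 CPM per kb (mean 11.6). TIMP3 was at 3.31 to 11.2 CPM per kb (mean 7.35). MMP2, the gelatinase whose proform TIMP2 binds, held 0 to 29 counts and was not tested, and MMP9, the other gelatinase, was at 0.0779 to 1.89 CPM per kb. HEYA8 cells thus held the transcripts of TIMP2 and MMP14 without much of those of MMP2.

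No protease of the list passed an adjusted p of 0.05 in edgeR in any of the 6 comparisons. At an unadjusted p under 0.05 the list gave 0 genes when S534A, and 1 when S545A, was set against ∆GAG-BG, and 0 where ∆GAG-BG or S545A was set against control vector, where 2.99, 1.1, 0.871 and 1.05% of all genes had such a p. That 1 gene was ADAMTS2, a procollagen-processing protease (-0.67, SE 0.296, p of 0.0430). S534A against control vector gave 2 (3.45% of all genes), both higher, MMP9 (2.23, SE 0.978, p of 0.0426) and MMP15 (0.93, SE 0.329, p of 0.0156), a membrane-type MMP. S545A against S534A gave 2 (4.78% of all genes), both lower, ADAM12 (-0.89, SE 0.345, p of 0.0252), a sheddase of growth factors, and MMP15 (-0.74, SE 0.325, p of 0.0412). MMP9, MMP15 and ADAM12 were each highest in S534A 2, at 4.40, 2.24 and 39.1 CPM. Without that library these 4 edgeR p-values ran from 0.136 to 0.687. ADAMTS2 was highest in ∆GAG-BG 1, and without it the difference was -0.46 with an edgeR p of 0.176. On leaving out libraries 2 and 3 of ∆GAG-BG and control vector, ADAMTS2 was -1.00 (p of 0.0171), and against control vector S534A was 1.93 for MMP9 and 0.57 for MMP15 (p of 0.270 and 0.313), each by edgeR. The list then gave 1 gene for S534A against ∆GAG-BG (ADAM8), 2 for S545A against ∆GAG-BG (ADAMTS2 and ADAM8), and 1, 0 and 1 for ∆GAG-BG (ADAM8), S534A and S545A (MMP16) against control vector, where 11.6, 5.48, 9.45, 1.99 and 3.44% of all genes had such a p. With all 12 libraries the median log2 fold change of the 17 was 0.06 and -0.10 for S534A and S545A against ∆GAG-BG. It was 0.02, 0.16 and 0.03 for ∆GAG-BG, S534A and S545A against control vector, and -0.22 for S545A against S534A. All genes tested had medians of -0.01 to 0.01.

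Among 17 partners of the TIMPs and RECK and other inhibitors of these proteases, 11 were tested. ITGB1, an integrin chain that TIMP2 binds with its partner chain, was at 169 to 189 CPM per kb, CD63, the surface tetraspanin that holds TIMP1, at 93.3 to 122, and LRP1, the receptor that takes up TIMPs with their proteases, at 6.69 to 13.2. At an unadjusted edgeR p under 0.05, ADGRA2, the receptor that works with RECK in Wnt signaling, was lower in S534A than in ∆GAG-BG (-0.57, SE 0.221, p of 0.0245). PCOLCE2, which enhances procollagen cleavage and carries a TIMP-like domain, was higher in S534A than in control vector (0.75, SE 0.317, p of 0.0351) and lower in S545A than in S534A (-0.97, SE 0.320, p of 0.0106). These were 1 of 11, 1 of 11 and 1 of 11 in their comparisons, against 2.99, 3.45 and 4.78% of all genes, and 0 of 11 in the other 3. PCOLCE2 was highest in S534A 2 at 11.7 CPM, and without it both p-values passed 0.05 (0.263 and 0.0809 in edgeR). Leaving out libraries 2 and 3 of ∆GAG-BG and control vector gave it 0.37 in S534A against control vector (edgeR p of 0.478). ADGRA2 was highest in ∆GAG-BG 1 at 5.40 CPM, and without that library the difference was -0.28 with an edgeR p of 0.165, while without libraries 2 and 3 of ∆GAG-BG and control vector it was -1.01 with p of 0.00524 in edgeR. The partner list then gave 3, 1, 2, 0 and 1 of 11 in the same 5 comparisons, in the order and against the shares given for the proteases. These were ADGRA2, LRP1 and ITGA3 in the first, SPOCK1 in the second and the last and LRP1 and ITGA3 in the third, and they, ADAM8 and MMP16 are named after their values were seen. With all 12 libraries the medians of the 11 lay between -0.04 and 0.11 on the log2 scale. Without libraries 2 and 3 of ∆GAG-BG and control vector they ran from -0.25 (S545A against ∆GAG-BG) to 0.14 (S534A against control vector).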

How the data were processed

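RNA-seq of 12 HEYA8 libraries was used, 3 in each of 4 groups assigned from the genotype labels. The library titled S545S carries the genotype S545A and was used as such. The authors deposited 1 table of raw read counts per gene, with no normalization. The submitters' processing notes name FastQC, Trim Galore 0.4.5, STAR 2.4, SAMtools 1.2 and featureCounts and a mouse build, while the table holds human genes at GRCh38 coordinates of GENCODE. The authors' differential expression used bioJupies and was not used here.

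Genes were kept with filterByExpr at a minimum count of 10. The robust quasi-likelihood test of edgeR 4.0.16 (R 4.3.3) was run on the deposited counts, with TMM factors and all 4 groups in 1 model (8 residual degrees of freedom), with Benjamini-Hochberg adjustment over 16069 genes. The common biological coefficient of variation was 0.163. Levels are CPM on the effective library size, and CPM per kb of deposited length. Correlations used 100000 permutations, and ratios exact two-sided permutation tests over libraries (scipy 1.17.1). Scripts were tested on simulated data with known changes. Depth is given with the levels. DESeq2 1.42.0 and limma 3.58.1 served among the alternatives.

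The genes named were all members, TGFBR3, the 3 genes closest in pattern to each member, genes at the members' loci, MMP2, MMP9, MMP14, ADAM10, ADAM17, CD63, LRP1 and ITGB1, and at most 3 genes per list and comparison with the smallest unadjusted p under 0.05. The members and lists were chosen with earlier results of these data known. Alternatives without libraries 2 and 3 of ∆GAG-BG and control vector (fits, ratios and list counts), the correlations over 9 libraries, and those within sets by TIMP2 were chosen after seeing the data. The replicate numbers carry no batch or day in the labels. Between S545A and control vector, the deviations of libraries of the same number from their group means correlated at 0.60, 0.30 and 0.29. Since libraries 2 and 3 were near repeats in both groups, these values cannot tell number 2 from number 3 and do not establish pairs. The main test used no pairs, and the replicate number served as a block only in an alternative. In the other comparisons at least 1 correlation was under 0.1.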

Additional observations from a re-analysis of the deposited data

How the results depend on the processing

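With each library left out in turn, TIMP3 ran from -1.20 to -0.83 in S534A against ∆GAG-BG, 0.45 to 0.80 in S545A against S534A and 0.045 to 0.30 in S545A against control vector. For S534A against control vector the range was -0.65 to -0.30 for TIMP3, -0.092 to 0.55 for TIMP1, -0.18 to 0.042 for TIMP2 and -0.76 to 0.22 for TIMP4. In ∆GAG-BG against control vector it was 0.43 to 0.68 for TIMP3, -0.13 to 0.28 for TIMP1, -0.11 to 0.088 for TIMP2, -0.29 to 0.73 for TIMP4 and -0.077 to 0.12 for RECK. S545A against ∆GAG-BG gave -0.53 to -0.27 for TIMP3, -0.32 to 0.082 for TIMP1, -0.018 to 0.13 for TIMP2 and -0.11 to 0.67 for TIMP4. S534A against ∆GAG-BG gave -0.24 to 0.48 for TIMP1, -0.17 to 0.030 for TIMP2, -0.77 to 0.020 for TIMP4 and -0.18 to 0.021 for RECK. S545A against control vector gave -0.077 to 0.15 for TIMP2 and -0.11 to 0.87 for TIMP4, and S545A against S534A gave -0.60 to 0.048 for TIMP1 and -0.072 to 0.0062 for RECK. Over these fits 0 to 1 members had an unadjusted p under 0.05 when S534A or ∆GAG-BG was set against control vector, 1 to 2 in S545A against S534A and 0 to 2 in S545A against ∆GAG-BG. Of all genes, 1.27 to 11.7%, 0.817 to 2.49%, 1.68 to 15.8% and 0.729 to 5.55% had such a p in these comparisons, in that order. The log2 ratio of TIMP3 to TIMP1 ran from -0.62 to 0.016 in S545A against ∆GAG-BG, and that of TIMP3 to TIMP2 from -0.076 to 0.38 in S545A against control vector. The cause of the changes given here was not tested.

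With the replicate number as a block, no member's call changed in any of the 6 comparisons. Of the protease and partner genes named, the edgeR p passed 0.05 under the block for MMP9 in S534A against control vector (1.99, p of 0.0540), ADAMTS2 in S545A against ∆GAG-BG (-0.65, p of 0.0581) and MMP15 in S545A against S534A (-0.71, p of 0.0558), in comparisons whose libraries share only a number. Under the block TIMP3 was 0.14 in S545A against control vector, and RECK in ∆GAG-BG against control vector was -0.0038 where it had been 0.0008. RECK there was also below 0 with DESeq2 (-0.0039), RLE factors (-0.0038), at least 10 counts in every library (-0.0015), no filter (-0.013), only the 2 groups compared (-0.0047), limma on quantile-normalized values (-0.022) and limma-voom (-0.012). With limma-voom TIMP4 in S534A against control vector was 0.15. With the 2 groups alone, TIMP3 in S534A against control vector was -0.52 with an edgeR p of 0.0517. There 0 members were under 0.05, against 1.85% of all genes, and S545A against S534A gave 2, against 3.8% of all genes. With the longest transcript, the levels per kb were 56.0 for TIMP1, 137 for TIMP2 and 4.02 for RECK.

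With libraries 2 and 3 summed in each of S545A, ∆GAG-BG and control vector, TIMP3 against control vector was 0.37 in ∆GAG-BG (edgeR p of 0.232) and -0.59 in S534A (edgeR p of 0.0547). In either comparison 0 members were under 0.05, where 0.416 and 1.12% of all genes were, in that order. Of the 8 differences named for protease and partner genes, only ADGRA2 kept an edgeR p under 0.05 (0.0328), and the others had 0.0542 to 0.126. Opposite in sign were TIMP2 in S534A against control vector (0.011) and in S545A against ∆GAG-BG (-0.054), TIMP4 in S545A against ∆GAG-BG (-0.11), RECK in S534A (0.014) against ∆GAG-BG and, at -0.075, in ∆GAG-BG against control vector, the ratio of TIMP3 to TIMP2 in S545A against control vector (-0.032), and the correlations of TIMP2 with TIMP1 (0.034) and with TIMP3 (-0.0083), while TIMP1 with TIMP3 was -0.64 (permutation p of 0.0774).

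With libraries numbered 2 and 3 only, the members under 0.05 were 2 in ∆GAG-BG against control vector, 2 in S545A against S534A and 3 in S545A against ∆GAG-BG. In these comparisons 6.15, 17.1 and 12.6% of all genes had such a p, in that order. Within S545A, ∆GAG-BG and control vector these libraries are near repeats, so the p-values rest on a spread that may be partly technical. TIMP3 in S534A against control vector was -0.48 (edgeR p of 0.0768). In ∆GAG-BG against control vector TIMP4 was -0.78, TIMP2 -0.19 and TIMP1 -0.098, in S534A against ∆GAG-BG TIMP4 was 0.099 and TIMP2 0.11, and in S545A against ∆GAG-BG TIMP1 was 0.013, each opposite in sign.

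Without libraries 2 and 3 of ∆GAG-BG and control vector, which leaves 1 library in each of those groups, TIMP3 was -0.67 in S534A against ∆GAG-BG. Against control vector TIMP3 was then -0.10 for ∆GAG-BG and -0.11 for S545A, both opposite in sign. Also opposite in sign were TIMP4 (1.73) and TIMP2 (0.24) in S534A against control vector, RECK in ∆GAG-BG against control vector (-0.31), TIMP1 (-0.22) and RECK (0.24) in S534A against ∆GAG-BG, and TIMP2 (-0.11), TIMP4 (-0.55) and RECK (0.20) in S545A against ∆GAG-BG. The ratios of TIMP3 to TIMP1 and to TIMP2, in that order, were 0.60 and 0.10 in S545A against ∆GAG-BG, -0.62 and -0.56 when ∆GAG-BG was set against control vector, and -0.021 and -0.46 in S545A against control vector, all opposite in sign. TIMP4 rests on 11 to 66 counts per library, which limits its precision.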
